A study of Homo sapiens and Mus musculus with 24 samples.

Results

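The comparison of PIK3CA H1047R mutant with wild-type mouse embryonic fibroblasts (MEF) in DMSO rests on 6 of the 24 libraries of the series. The wild-type cells are MEF that received an adenovirus carrying GFP, written Ad-CMV GFP in the labels. The mutant cells are MEF in which an adenovirus delivered Cre recombinase to give a homozygous PIK3CA H1047R genotype. Each genotype was given the solvent DMSO in 3 libraries and the PI3K alpha inhibitor GDC0032 at 500 nM (written GDC500 in the treatment text) in 3 further libraries, and those 6 inhibitor libraries served here as a second, separate measurement of the same genotype difference. Both genotypes carried an adenovirus, and the vector (GFP or Cre) and the genotype cannot be told apart. The sources used here do not say whether the 3 libraries of a group came from separate embryos, infections or cultures, so p values measure the spread between these libraries, which may be technical. Nor do they say whether the DMSO and GDC0032 libraries of a genotype share embryos or infections, so the second measurement may not be independent of the first. The embryonic age, the number of embryos pooled and the duration of the treatment are not stated there either.

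PIK3CA encodes p110 alpha, the catalytic subunit of PI3K alpha, a lipid kinase that makes the membrane lipid PIP3 when growth factor receptors are active. PIP3 recruits the kinase AKT, which raises mTORC1 activity and keeps FOXO transcription factors out of the nucleus. H1047R lies in the kinase domain, raises lipid kinase activity and is among the most frequent PIK3CA changes in human tumours. In fibroblasts the pathway is known for linking growth factors to proliferation, protein and lipid synthesis and survival. GDC0032, also called taselisib, competes with ATP for the PI3K catalytic site.

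The tables list mouse transcripts by Ensembl identifier and do not pair them with genes, and no mouse name table was used here. The transcripts of Pik3ca itself, fibroblast markers, markers of other cells and PI3K pathway genes were therefore not analysed here, and neither the genotype nor the cell type was checked against a gene. What follows describes transcripts, which are single RNA isoforms. A gene can contribute several of them, and reads that isoforms share were divided by Salmon's estimate, whose uncertainty the test does not see.

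The 6 DMSO libraries held 45923450 to 52510597 estimated read pairs and the 6 GDC0032 libraries 42160117 to 47067117. At these depths 3 pairs correspond to 0.0588 to 0.069 CPM (read pairs scaled to the library total after TMM adjustment) in a library, for counting error only. The 20 most abundant transcripts took 10.7% to 11.4% of the pairs in the DMSO libraries. The first principal component of log2 CPM took 12.5% of the variance over the 12 MEF libraries. On it the mutant DMSO libraries lay at 131, 112 and 85.9, the wild-type DMSO libraries at -8.7, -19 and -55.6, the wild-type GDC0032 libraries at -104, -105 and -70.1, and the mutant GDC0032 libraries at 9.49, 15 and 8.82. On this component the mutant DMSO libraries thus stood on 1 side of all others. The second component took 10.7% of the variance. There the mutant GDC0032 libraries, at -113, -126 and -83.9, lay below all others, which were at -42 to 76.4. Replicates of a group differed by more than counting noise, with a chi-square of 6.87 to 11.2 per degree of freedom, so none was an identical copy of another. This value includes any error of Salmon's division of shared reads and does not tell technical from biological replicates.

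Mutant and wild-type MEF in DMSO differed in many transcripts, mostly by small amounts. By edgeR's quasi-likelihood test 5385 of 55500 transcripts were called, which is 9.7% of those tested. Of these, 3110 were higher in mutant cells (5.6% of those tested) and 2275 were lower (4.1%). The median log2 difference was 0.32 among the higher transcripts and -0.43 among the lower ones, and the median over all transcripts tested was -0.022. At least 1.5-fold changes numbered 403 upward and 672 downward, and at least 2-fold changes 94 upward and 168 downward. In 5378 of the 5385 called transcripts the 3 mutant and 3 wild-type libraries did not overlap, against 29.7% of all transcripts tested. The call and the lack of overlap rest on the same values, so the second adds no separate support. The split by direction depends on the scaling. When libraries were scaled by their totals alone, 2308 transcripts were higher and 2897 lower, so that 44.3% of calls were upward in place of 57.8%. Without wild-type DMSO replicate 1 the count of calls was 3542, without wild-type DMSO replicate 2 it was 3547, without mutant DMSO replicate 1 it was 3547 and without mutant DMSO replicate 2 it was 3557.

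Called transcripts were abundant ones, and those higher in mutant cells more so than the lower ones. The median level was 31.8 CPM for the higher transcripts, against 12.3 CPM for the lower transcripts and 1.66 CPM for all tested. Together the higher transcripts took 22.4% of the pairs in wild-type DMSO libraries and 26.1% in mutant DMSO libraries, and the lower transcripts 14.1% and 11.5%. Fewer cells that express a transcript and less of it per cell cannot be told apart in these bulk libraries. Among transcripts with a mean of 100 CPM or more over the 12 libraries, 736 of 1608 (45.8%) were called, 532 upward and 204 downward. Between 20 and 100 CPM the calls were 2136 of 6331 (33.7%), 1470 upward and 666 downward. Below 1 CPM they were 183 of 22243 (0.823%), 54 upward and 129 downward. These splits by direction are those under TMM scaling, on which, as above, the split depends. The share called followed the precision: the median standard deviation of log2 CPM within a group was 0.0384 in the most abundant class and 0.57 below 1 CPM. Accordingly the median size of a called rise was 0.22 on the log2 scale at 100 CPM or more and 2.31 below 1 CPM.

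**Figure D1:**
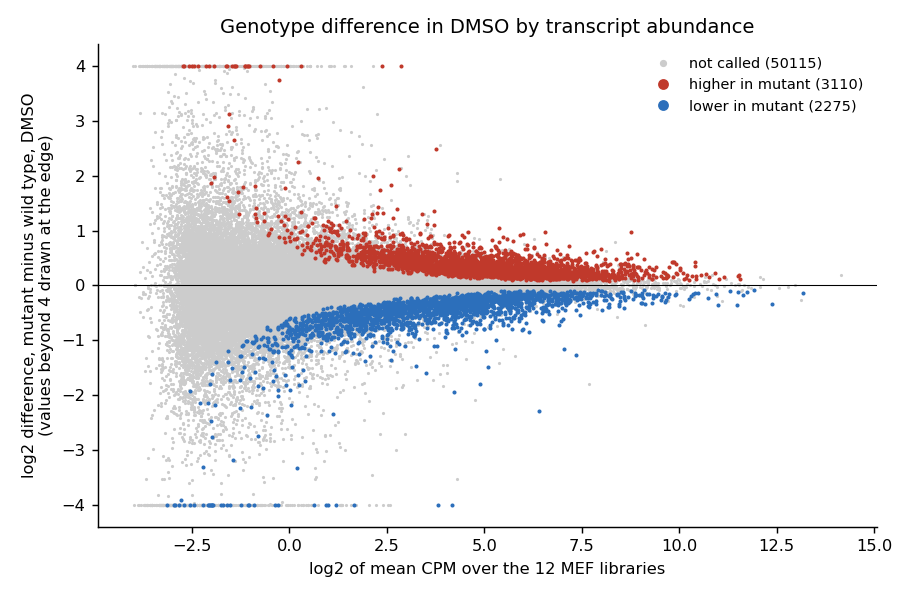
Each point is 1 of the 55500 transcripts tested; the horizontal axis is the log2 of the mean CPM over the 12 MEF libraries and the vertical axis the log2 difference of mutant minus wild type in DMSO, with values beyond 4 drawn at the edge. Red (3110) and blue (2275) points are called higher and lower; the smallest called difference is 0.08 on the log2 scale, and small differences are called only at high abundance.

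The 2 largest rises and 2 largest falls were taken among calls with no overlap and a higher group mean of at least 5 CPM. Of these 4 transcripts, 3 were listed at 0 in all libraries of 1 genotype in DMSO. Calls below that level were not ranked, and under a mean of 1 CPM the median called rise was 2.31 on the log2 scale. ENSMUST00000128570.8, 8436 nt long, was listed at 0 in all 3 wild-type DMSO libraries and at 2, 9.98 and 8.31 CPM in the mutant DMSO libraries. With 3 counts over the wild-type group as the floor (0.0214 CPM), it was at least 316-fold higher (edgeR adjusted p = 0.0149). That floor, like those below, covers counting error only and not the division of shared reads among isoforms. The same transcript was at 4.81, 7.89 and 22.1 CPM in wild-type GDC0032 libraries and at 22.6, 6.75 and 3.58 CPM in mutant GDC0032 libraries, so its levels there overlapped (log2 -0.08, adjusted p = 0.99). Its call in DMSO was lost with limma voom (adjusted p = 0.723).

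ENSMUST00000235620.1, 2441 nt long, was at 3.54, 6.73 and 3.01 CPM in wild-type DMSO and at 25.8, 16.3 and 32.1 CPM in mutant DMSO. In the authors' TPM, which divide by length, that is 2.49, 4.76 and 2.13 against 17.4, 11 and 22.1. Every mutant library was above every wild-type library, as its selection required, with a log2 difference of 2.48 (SE 0.499, adjusted p = 0.0118). The call was lost without wild-type DMSO replicate 1 (adjusted p = 0.0541) and without wild-type DMSO replicate 3 (adjusted p = 0.0519).

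ENSMUST00000101066.9, 8852 nt long, was at 23.2, 16.5 and 31.2 CPM in wild-type DMSO and listed at 0 in all 3 mutant DMSO libraries. It was at least 1120-fold lower over a floor of 0.0211 CPM, again for counting error only (edgeR adjusted p = 0.0481). The 3 wild-type GDC0032 libraries held it at 44.4, 31.8 and 0 CPM, a spread as wide as the range itself. The call was lost in 14 of the 20 alternatives that gave it a value, among them each one that left out a DMSO library (adjusted p = 0.0876 to 0.114).

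ENSMUST00000107284.7, 4207 nt long, was at 9.02, 4.61 and 9.17 CPM in wild-type DMSO and listed at 0 in the other 9 MEF libraries. It was at least 361-fold lower in mutant DMSO over the same floor (adjusted p = 0.00273), and with limma voom the call was lost (adjusted p = 0.108). Both genotypes were thus listed at 0 under GDC0032.

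**Figure D2:**
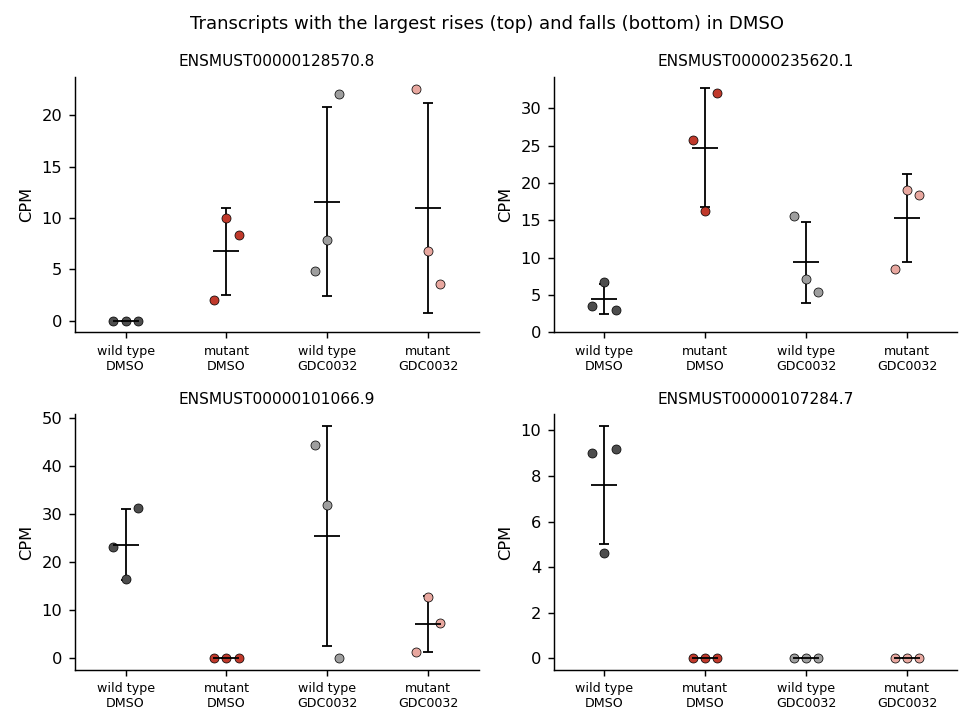
Levels in CPM (vertical axes) of the transcripts with the 2 largest rises (top) and the 2 largest falls (bottom) in mutant DMSO cells. They are the largest among calls with no overlap and a higher group mean of at least 5 CPM. Each point is a library, bars are the mean and standard deviation of n = 3, and the 4 groups are on the horizontal axes. Under GDC0032 the genotypes overlap in 3 of the 4 transcripts, and ENSMUST00000107284.7 is at 0 in all 6 libraries.

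Some calls were transcripts listed at 0 throughout a group, which could be called in 1 direction only. Of 437 tested transcripts with no pair in any wild-type DMSO library, 24 were called, and of 506 with no pair in any mutant DMSO library, 29 were called. Over all transcripts tested 5.6% were called higher and 4.1% lower, and below a mean of 1 CPM 0.823% were called in either direction. Of those 24, 18 had pairs in wild-type GDC0032 libraries, and of those 29, 25 had pairs in mutant GDC0032 libraries. Under GDC0032, 0 of the former and 1 of the latter were called in the same direction. An exact 0 from Salmon can be an assignment of shared reads to another isoform, which was not tested. Most calls, 5322, came from transcripts with a pair in every DMSO library.

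At a mean of 20 CPM or more, 2872 transcripts were called but only 7 changed by 2-fold or more, 1 upward and 6 downward. The strongest fall with a tight spread was that of a transcript of 2967 nt, which also had the smallest adjusted p of the comparison. It was at 158, 161 and 134 CPM in wild-type DMSO and at 30.4, 31.1 and 30.9 CPM in mutant DMSO. The authors' TPM for it were 91.9, 93 and 79.7 against 16.6, 17.2 and 17.3. The groups lay far apart, with a log2 difference of -2.30 (SE 0.0708, adjusted p = 6.95e-07), a 4.91-fold lower level. The next smallest p among the lower transcripts belonged to a transcript of 3484 nt, at 116, 112 and 114 CPM in wild-type DMSO and 51.8, 50.9 and 50.2 CPM in mutant DMSO. Its log2 difference was -1.16 (SE 0.047, adjusted p = 5.43e-06). The only 2-fold rise at this level was that of a transcript of 4483 nt, from 34.7 ± 9.22 to 71.2 ± 3.68 CPM (SD, n = 3), with a log2 difference of 1.04 and an adjusted p = 0.0154 by edgeR. That call was lost without wild-type DMSO replicate 1 (adjusted p = 0.0572) or replicate 2 (adjusted p = 0.0519).

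The rises with the smallest p were of less than 2-fold, and some of them are described here. A transcript of 1598 nt was at 139, 138 and 137 CPM in wild-type DMSO and at 226, 235 and 221 CPM in mutant DMSO. In TPM these libraries read 157, 155 and 156 against 243, 254 and 243. The log2 difference was 0.72 (SE 0.0307, adjusted p = 6.03e-06). A transcript of 1610 nt rose from 88.8 ± 1.16 to 149 ± 5.83 CPM, and 1 of 6006 nt from 342 ± 10.3 to 668 ± 13.8 CPM (SD, n = 3 each). In both the lowest mutant library was above the highest wild-type library, with log2 differences of 0.75 and 0.97. Each of the transcripts of 2967, 3484, 1598, 1610 and 6006 nt kept its call and direction in all 21 alternatives computed.

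The same genotype difference was then measured in the 6 GDC0032 libraries, which share no library with the DMSO comparison. It asks how much of the difference between mutant and wild-type cells was present in cells given the inhibitor, whose effect on PI3K was not measured in these libraries. Under GDC0032 only 549 transcripts were called (0.989% of those tested), 346 higher (0.623%) and 203 lower (0.366%) in mutant cells. With library totals alone as the scaling, 261 were higher and 314 lower. When only the 6 GDC0032 libraries were fitted, with no spread borrowed from the DMSO groups, 3 transcripts were called, while the DMSO comparison fitted alone gave 4446. Without mutant GDC0032 replicate 2 the count was 168, without wild-type GDC0032 replicate 2 it was 192, without mutant GDC0032 replicate 1 it was 196 and without mutant GDC0032 replicate 3 it was 267. It was 316 without wild-type DMSO replicate 2, a library that adds only to the shared spread. A count of calls also depends on the spread between replicates. The chi-square per degree of freedom was 9.52 to 11.2 between wild-type GDC0032 libraries and 6.87 to 8.33 between wild-type DMSO libraries. Between mutant libraries it was 8.09 to 8.34 under GDC0032 and 7.94 to 8.34 in DMSO.

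Most transcripts called in DMSO leaned the same way under GDC0032, by less. Of the 5385, 4473 (83.1%) had the same direction, against 61.4% of all transcripts tested. The higher transcripts had a median log2 difference of 0.32 in DMSO and 0.10 under GDC0032, and the lower ones -0.43 and -0.13. Transcripts chosen by their DMSO value overstate that value. Chosen the other way, the 346 transcripts called higher under GDC0032 had a median of 0.29 there and 0.32 in DMSO, and the 203 called lower had -0.34 and -0.26. The transcripts called in both comparisons in the same direction numbered 379, which is 7.04% of the DMSO calls and 69% of the GDC0032 calls. Another 7 were called in opposite directions.

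The interaction term, which is the genotype difference under GDC0032 minus that in DMSO, tests the change itself. It was called for 459 transcripts (0.827% of those tested), 174 upward and 285 downward, and 431 of them were among the DMSO calls. In all 431 the difference under GDC0032 had moved toward 0 or past it, and 398 of them were not called under GDC0032. The direction of these 431 follows in part from having chosen them by a large DMSO difference. The count of interaction calls was 140 without wild-type DMSO replicate 1 and 326 without wild-type GDC0032 replicate 3, and each other library gave a value between. It was 154 and 184 without wild-type DMSO replicates 2 and 3, and 168, 175 and 242 without mutant DMSO replicates 1, 2 and 3. It was 272 and 176 without wild-type GDC0032 replicates 1 and 2, and 191, 273 and 192 without mutant GDC0032 replicates 1, 2 and 3.

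Some of the best measured transcripts had a much smaller genotype difference under GDC0032 than in DMSO. The transcript of 1598 nt, higher in mutant DMSO cells, was at 109, 109 and 105 CPM in wild-type and 106, 112 and 106 CPM in mutant GDC0032 libraries. The groups overlapped there (log2 0.01, SE 0.0308), and the interaction was -0.72 (adjusted p = 0.000574). The transcript of 1610 nt had 74.6 ± 1.78 CPM in wild-type and 72.4 ± 2.6 CPM in mutant GDC0032 cells (SD, n = 3), with an interaction of -0.79 (edgeR adjusted p = 0.000574). For the transcript of 3484 nt, lower in mutant DMSO cells, both genotypes were higher under GDC0032, at 205, 193 and 188 CPM in wild-type and 177, 165 and 156 CPM in mutant libraries. A difference of -0.24 on the log2 scale was left (adjusted p = 0.0457), and the interaction was 0.93 (adjusted p = 0.000908).

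Other transcripts were called in both media, with no interaction call. The transcript of 2967 nt was at 128, 120 and 137 CPM in wild-type and 29.4, 30.2 and 28.6 CPM in mutant GDC0032 libraries. Its log2 difference there was -2.12 (SE 0.0706, adjusted p = 1.49e-06), and the interaction of 0.17 did not pass the test (adjusted p = 0.564). A transcript of 2803 nt was at 262, 264 and 225 CPM in wild-type DMSO, 104, 105 and 103 CPM in mutant DMSO, 197, 209 and 229 CPM in wild-type GDC0032 and 83.1, 91.6 and 84.3 CPM in mutant GDC0032. Its log2 differences were -1.27 and -1.29 (interaction adjusted p = 0.97), and in both media the groups lay apart. The transcript of 6006 nt lay between these patterns, with 287 ± 22.1 CPM in wild-type and 428 ± 9.35 CPM in mutant GDC0032 cells (SD, n = 3), a log2 difference of 0.58 and an interaction of -0.39 (edgeR adjusted p = 0.0352). Further rises with small p, of 2812 and 3761 nt, had log2 differences of 0.63 and 0.89 in DMSO and 0.2 and 0.51 under GDC0032. Further falls with small p, of 6976, 7581 and 2288 nt, had -0.8, -0.51 and -0.6 in DMSO. Under GDC0032 these falls had -0.1, -0.13 and -0.35. Each of these further transcripts had an interaction call.

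**Figure D3:**
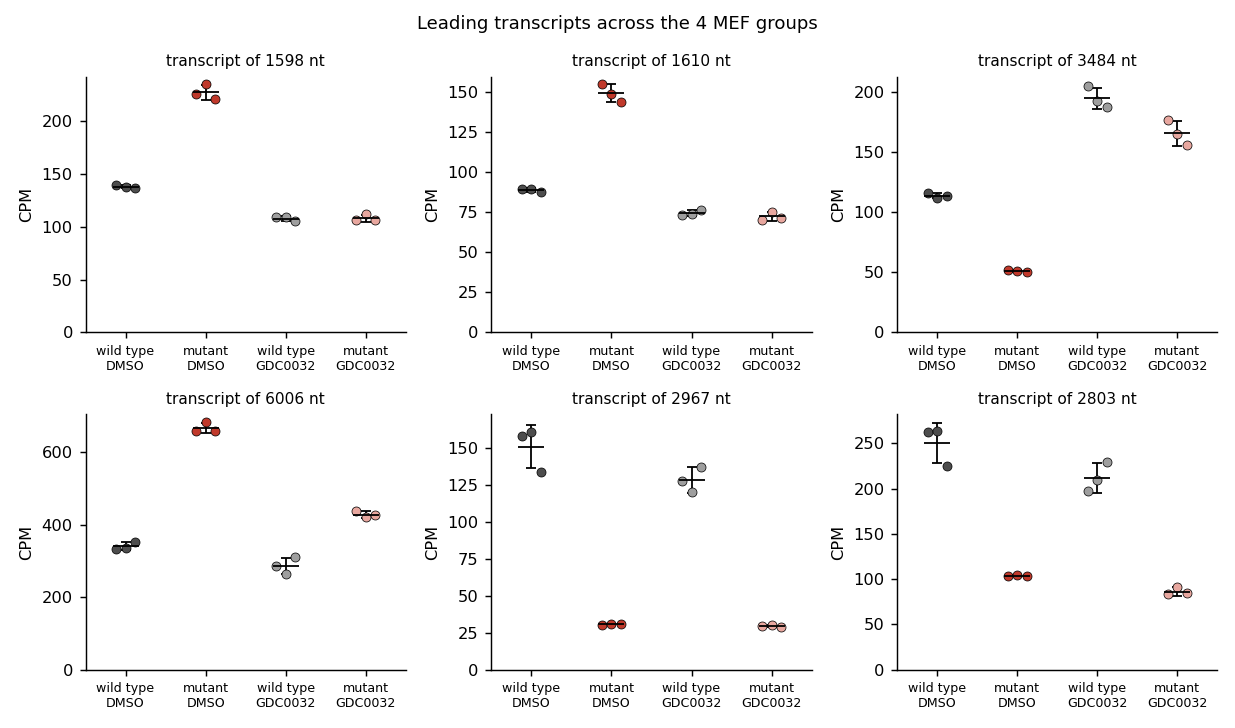
Levels in CPM (vertical axes, from 0) of 6 well measured transcripts, described by their length, in the 4 MEF groups (horizontal axes); points are libraries and bars the mean and standard deviation of n = 3. In the top row the genotypes are far apart in DMSO and closer together under GDC0032. The transcripts of 2967 and 2803 nt in the bottom row stay apart in both, and that of 6006 nt is intermediate. The 6 transcripts were chosen after their values were seen.

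As a description, the DMSO calls were sorted by these tests, so the medians of each class follow in part from the sorting. The 270 higher transcripts with an interaction call had a median log2 difference of 0.42 in DMSO and 0.02 under GDC0032, and the 161 lower ones had -0.46 and -0.01. Relative to the wild-type DMSO mean, the higher ones lay at medians of 0.43, 0.434 and 0.394 in the mutant DMSO libraries. The same transcripts lay at -0.0555, -0.0387 and -0.0826 in the mutant GDC0032 libraries and at -0.0943, -0.0959 and -0.118 in the wild-type GDC0032 libraries. A further 231 higher and 122 lower transcripts were called both in DMSO and under GDC0032 in the same direction with no interaction call. Their medians were 0.35 and 0.28 for the higher and -0.36 and -0.30 for the lower transcripts. The remaining DMSO calls could be placed in neither class at this precision, and an interaction that misses the threshold does not show that the 2 differences are equal.

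**Figure D4:**
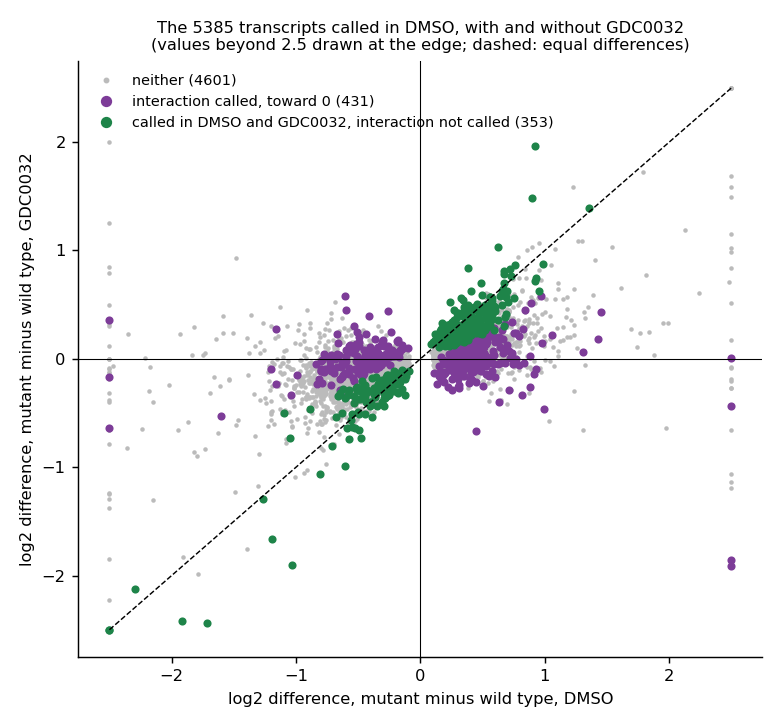
Log2 difference of mutant minus wild type in DMSO (horizontal) against that under GDC0032 (vertical) for the 5385 transcripts called in DMSO; values beyond 2.5 are drawn at the edge and the dashed line marks equal differences. The 431 transcripts with an interaction call (purple) have vertical medians of 0.02 (higher in DMSO) and -0.01 (lower). The 231 higher and 122 lower transcripts called in both with no interaction call (green) have 0.28 and -0.30. The classes were formed by tests on these same values, so their medians follow in part from the sorting.

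Among transcripts with a mean of 20 to 100 CPM, of which 33.7% were called, the split of calls by direction varied with length in DMSO. In this range 21 of 78 shorter than 500 nt were higher in mutant cells and 0 were lower. From 500 to under 1000 nt, 147 of 439 were higher and 16 were lower. At 4000 nt and over, 345 of 2297 were higher and 321 were lower. These splits, and the medians that follow, are those under TMM scaling, on which the split by direction depends. The median log2 difference over all transcripts of this abundance was 0.18 under 500 nt, 0.16 from 500 to under 1000 nt, 0.12 from 1000 to under 2000 nt, 0.075 from 2000 to under 4000 nt and 0.005 from 4000 nt. Over all 55500 transcripts tested, at any abundance, the medians of these length classes were 0, -0.02, 0.0085, -0.03 and -0.043, which is a smaller gap and not in order of length. The median level over all tested rose with length, from 0.485 CPM under 500 nt to 7.47 CPM from 4000 nt. Under GDC0032 the classes at 20 to 100 CPM had medians of 0.042, 0.039, 0.015, 0.019 and 0.016.

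Per library, the median of the transcripts under 1000 nt minus that of those of 4000 nt and over, relative to the wild-type DMSO mean, was 0.197, 0.117 and 0.144 in mutant DMSO. It was 0.0418, 0.00988 and 0.0834 in wild-type GDC0032 and 0.0826, 0.0887 and 0.0471 in mutant GDC0032. The wild-type DMSO libraries were all near 0, between -0.000721 and -0.000239, partly because they set the reference. Mutant minus wild type was 0.153 in DMSO (two-sided exact permutation test, p = 0.1, the smallest that 3 against 3 libraries allow) and 0.0278 under GDC0032 (p = 0.3 by the same exact test). Neither passes 0.05 nor could. The median effective length that Salmon gave transcripts of 1000 to under 2000 nt was 1255 to 1281 nt over the 12 libraries, and the genotypes overlapped in both media. With effective lengths as offsets in the fit, the DMSO difference between short and long transcripts was 0.146 in place of 0.16. Leaving out single libraries gave 0.133 (without mutant DMSO replicate 1) to 0.169 (without mutant DMSO replicate 2). A scaling factor per library cancels in this difference. The part of RNA quality or library preparation in this pattern was not tested.

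**Figure D5:**
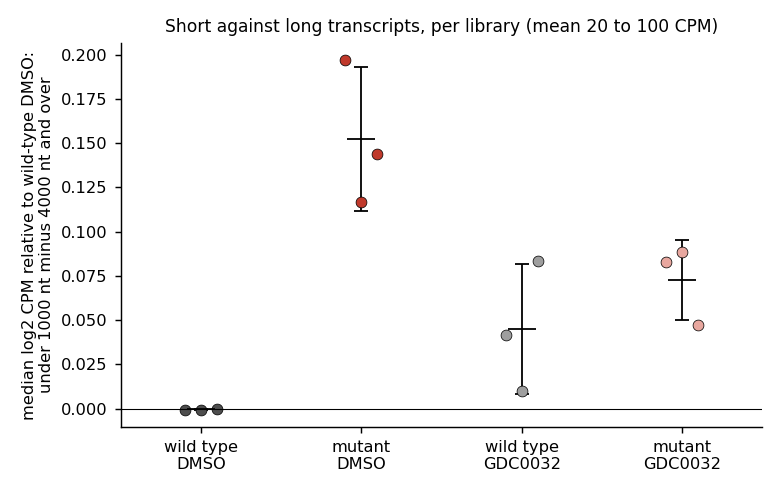
Each point is a library: the vertical axis is the median log2 CPM relative to the wild-type DMSO mean of 517 transcripts under 1000 nt minus that of 2297 transcripts of 4000 nt and over, all with a mean of 20 to 100 CPM, and bars are the mean and standard deviation of n = 3. The 3 mutant DMSO libraries, at 0.117 to 0.197, lie above the other 9.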

How the data were processed

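RNA of the mouse embryonic fibroblasts was sequenced as paired reads of 100 nt. Per the submitters' processing notes, reads were trimmed with Trim Galore 0.6.1 and cutadapt and transcripts were quantified with Salmon 1.2.1, with GRCm38 as the mouse build. DESeq2 1.28.1 is named there too. The sources used here do not give Salmon's options, the RNA selection or the strandedness. Deposited are expected counts (estimated read pairs), TPM scaled within each library by the authors, and other columns with length and effective length, per the file headers. The tables list 116248 transcripts without gene names. Gene sums, gene lists and the comparison with MCF10A genes were therefore not run.

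Expected counts were rounded, filtered with filterByExpr, scaled by TMM and fitted by group means over the 12 MEF libraries with edgeR 4.0.16 (robust quasi-likelihood test, 8 residual degrees of freedom, R 4.3.3). Levels are CPM on TMM-scaled totals. p values are two-sided and Benjamini-Hochberg adjusted over 55500 transcripts. An adjusted p under 0.05 is a call.

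Transcripts named by identifier are the 2 largest rises and the 2 largest falls among calls whose 3 mutant and 3 wild-type libraries do not overlap and whose higher group mean is at least 5 CPM. Transcripts described by length are among those with the smallest p in a comparison and the strongest rises or falls at a mean of 20 CPM or more. They, and those of them described in detail or drawn, were chosen after their values were seen. Members and lists were chosen with earlier results of these data known. Alternatives were other scalings (RLE size factors, library totals), no filter, DESeq2 1.42.0, limma 3.58.1 voom, effective length offsets, the replicate block, only the 2 groups compared, and leaving out each library. A restriction to transcripts with a pair in all 6 DMSO libraries was added after seeing the data.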

Additional observations from a re-analysis of the deposited data

Results flagged for a closer look

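In the main fit 459 transcripts were called by the interaction test of whether the genotype difference depended on the inhibitor (edgeR adjusted p under 0.05). Fewer were called with the replicate block (116), with no filter on low counts (205) and with 1 library left out (140 to 326). More were called with effective length offsets (559) and with DESeq2 (2380). Among the transcripts described by their length, the interaction on the log2 scale was -0.72 for that of 1598 nt, -0.43 for that of 2812 nt, -0.37 for that of 3761 nt, -0.79 for that of 1610 nt, -0.39 for that of 6006 nt, -1.05 for that of 4627 nt and -0.83 for that of 1758 nt, all higher in mutant DMSO cells. It was 0.93 for that of 3484 nt, 0.70 for that of 6976 nt, 0.38 for that of 7581 nt and 0.26 for that of 2288 nt, all lower in mutant DMSO cells. These transcripts were chosen for small p values or large DMSO differences.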

How the results depend on the processing

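With library totals as the scaling the balance of calls turned: the upward share was 44.3% in place of 57.8% in DMSO and 45.4% in place of 63% under GDC0032. Without a filter on low counts, 357 transcripts were called under GDC0032 and 205 in the interaction, and 84.4% of DMSO calls had the same direction under GDC0032. DESeq2 called 8229, 2982 and 2380 transcripts in DMSO, under GDC0032 and in the interaction, with 80.6% in the same direction. Fitting only the 6 GDC0032 libraries left 3 calls, all downward. Deviations of same-numbered DMSO libraries of the genotypes correlated at 0.0258, 0.0494 and 0.147, and those of differently numbered ones at -0.134 to 0.0925. The labels do not say whether the numbers 1 to 3 pair libraries, and these values do not settle it. The main fit did not pair them. With the replicate block the DMSO comparison gave 4321 calls, GDC0032 193 and the interaction 116. The call of ENSMUST00000128570.8 was lost there (adjusted p = 0.0503), as was that of ENSMUST00000101066.9 (adjusted p = 0.112). Leaving out 1 library gave 3542 to 5437 DMSO calls, 168 to 475 GDC0032 calls, 140 to 326 interaction calls and 80.5% to 85.4% in the same direction. Only transcripts with a pair in all 6 DMSO libraries, an alternative chosen after seeing the data, gave 5750 DMSO calls. Transcripts were the features throughout, so the planned change from genes to transcripts was not run, and the MCF10A alternatives were not run either.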
